A study of Mus musculus with 9 samples.

Results

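In Reissner's membrane of adult mice, 85 of 18193 genes on the array had lower signal after 24 h in culture than in fresh tissue, and higher signal after 24 h in culture with dexamethasone than without it. The membrane, a thin epithelial sheet that bounds the endolymph space of the cochlea, was dissected by hand and pooled across animals, and RNA was measured on 9 expression arrays: 3 of fresh tissue taken at 0 h, 3 of explants incubated for 24 h without dexamethasone, and 3 of explants incubated for 24 h with it. Dexamethasone, a synthetic glucocorticoid, was at 100 nM in the design text and the label of array A, while the labels of arrays B and C give the same figure in mM. The labels name no strain, sex, genotype or transgene. According to the design text each biological sample was a pool put on 3 chips, so the spread between arrays, and any p-value built on it, may be technical rather than a measure of variation between mice.

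The genes were chosen by their signals on these arrays. Each gene was represented by 1 probe set, the one with the highest mean log2(signal + 32), and had to reach a mean signal of 200 in both fresh and dexamethasone arrays. Its mean log2(signal + 32) had to be at least 0.8 lower in incubated than in fresh arrays and at least 0.8 higher in dexamethasone than in incubated arrays. Of 9904 genes at 200 or more in fresh tissue, 8715 also reached it with dexamethasone, 916 of those met the limit in culture and 98 met the whole rule. The rule names 14 genes to leave out; 13 of them were among the 98, and their dexamethasone changes ran from 0.87 to 3.22 (log2), while Gjb6, at 0.72, missed the limit. Near the limit in culture, Alox5ap (-0.82) and D930016D06Rik (-0.83) were just inside and Scn7a (-0.79) and Cpeb2 (-0.77) just outside. Near the limit for dexamethasone, Pgm5 (0.81) and Limch1 (0.82) were inside, and Ptpre and Nr1d1 (both 0.80 when rounded, 0.799 and 0.796) were outside. Both changes chose the genes and share the incubated arrays, so they are described here without a test.

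Glucocorticoids enter cells and bind the glucocorticoid receptor, which moves to the nucleus and raises or lowers transcription of target genes, often through short paired sites in DNA. In the inner ear the hormone acts on ion and fluid transport, and the epithelium of Reissner's membrane takes up sodium from endolymph under its control.

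Across the 85 genes the median change in culture was -1.66 (log2; range -5.90 to -0.82) and the median change with dexamethasone against incubated tissue was 1.11 (range 0.81 to 2.33), signals under 200 included; over the 47 genes at 200 or more on every incubated array the medians were -1.56 and 1.01. The median array signal over these genes was 1106, 1232 and 1148 on the fresh arrays, 260.5, 252.7 and 257.2 on the incubated arrays and 626, 666 and 636 on the dexamethasone arrays. For every one of the 85, all 3 incubated arrays lay below all fresh and all dexamethasone arrays, as the rule largely fixes; over the 10228 genes tested, limma called 40.7% lower and 36.1% higher in culture, and 22.3% higher and 28.7% lower with dexamethasone than in incubated tissue (adjusted p under 0.05, Benjamini-Hochberg). In tissue made of several cell types, fewer cells of a type and less RNA per cell cannot be told apart.

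With dexamethasone the signal was a median of 69.7% of fresh (range 3.79% to 233%), a median difference of -0.47 (log2). All 3 dexamethasone arrays lay below all 3 fresh arrays for 55 of the 85 genes, the arrays overlapped for 18, and all 3 lay above fresh for 12. Over all tested genes, 43.6% had all dexamethasone arrays below fresh and 35.9% had them all above. Since the difference from fresh is the sum of the changes that chose the genes, it has no test. In 32 genes all incubated arrays were under a signal of 200, the working floor, and only a bound on their changes can be given, as "at least" a fold against 200. In the 47 genes whose incubated arrays all reached 200, the share of the fall in culture (log2) that was absent with dexamethasone had a median of 0.69: it was under 0.5 in 9, between 0.5 and 1 in 26 and over 1 in 12.

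**Figure D1:**
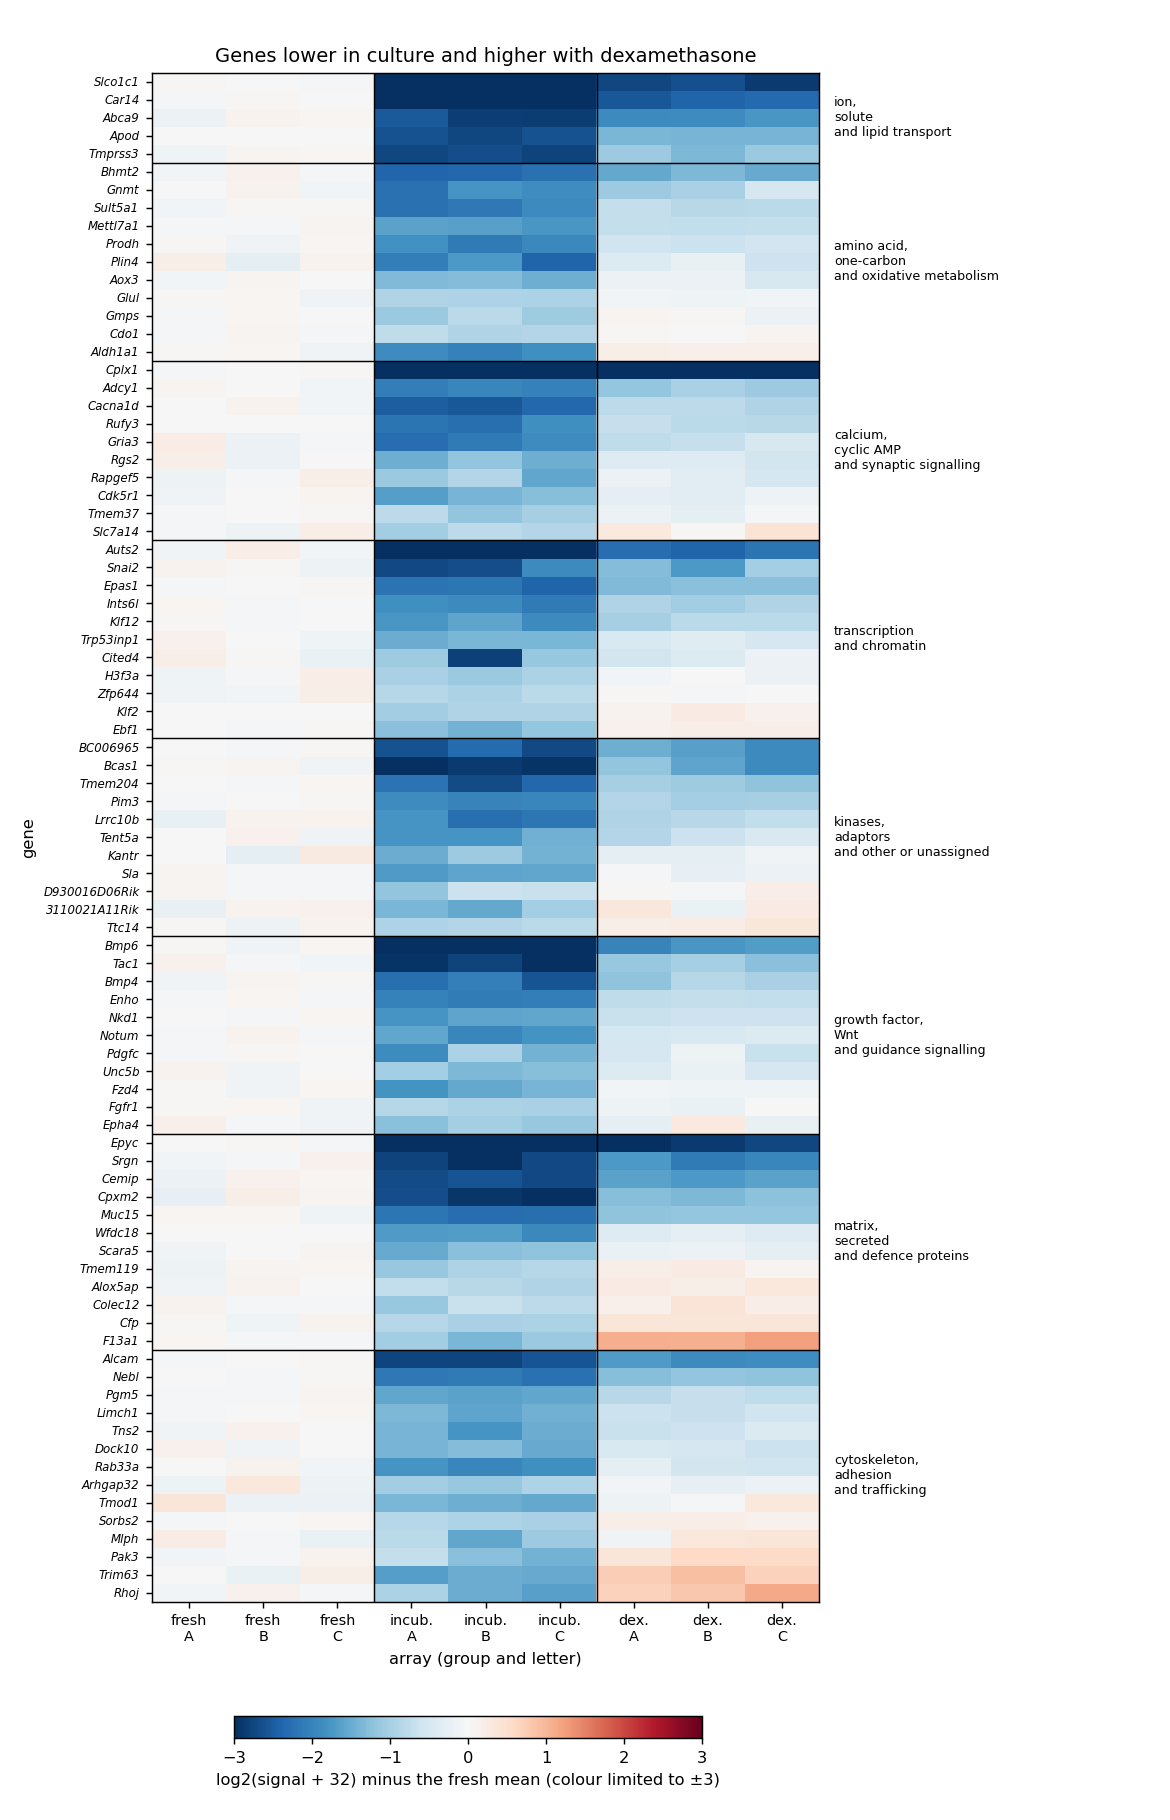
Each row is 1 of the 85 genes and each column 1 array; colour is log2(signal + 32) minus the gene's mean over the fresh arrays, with genes grouped by role. The median over genes was -1.71, -1.62 and -1.57 on the incubated arrays and -0.52, -0.50 and -0.52 on the dexamethasone arrays, and rows with red dexamethasone cells, such as F13a1, Rhoj and Trim63, passed the fresh level.

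Promoters were examined for receptor sites because all 85 genes were higher with the hormone. The windows were the 250 bases before each RefSeq transcription start on GRCm38.p6, listed for 65 of the 85 genes, with 88 windows in all. The single receptor site AGAACA, searched on both strands, was in 13 of the 88 windows (14.8%), against 16.1% of all 32851 windows. An exact inverted repeat, AGAACA followed after 3 bases by TGTTCT, was in 0 of 88 windows and in 3 of all windows (0.00913%). Relaxed to GNACA and TGTNC, 3 bases apart, a pattern chosen after that search, it was in 2 windows (2.27%, against 0.387% of all), those of Trim63 and Car14. The E-box CACGTG, the core of the site bound by clock factors, was in 7 windows (7.95%, against 6.02%), and the cyclic AMP element TGACGTCA in 0 (against 1.55%). A match describes letters in a window, not binding.

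The bases before the start are shown for the 2 genes with the relaxed repeat, for Tmprss3 as a window with a single receptor site and for Bmp4 as one with an E-box; the match is in capitals, and each is written 5′ to 3′ on the gene's strand. They lie at chr4:134314870-134315119 (Trim63, plus strand), chr3:95904686-95904935 (Car14, minus), chr17:31197750-31197999 (Tmprss3, minus) and chr14:46390670-46390919 (Bmp4, minus). In Trim63 the repeat spans bases -208 to -196 from the start and in Car14 bases -225 to -213.
Trim63: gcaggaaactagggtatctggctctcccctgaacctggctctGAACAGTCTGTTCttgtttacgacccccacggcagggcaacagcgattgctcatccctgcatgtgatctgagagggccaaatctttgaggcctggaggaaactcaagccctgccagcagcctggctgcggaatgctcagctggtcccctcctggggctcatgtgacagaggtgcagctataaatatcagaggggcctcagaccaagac
Car14: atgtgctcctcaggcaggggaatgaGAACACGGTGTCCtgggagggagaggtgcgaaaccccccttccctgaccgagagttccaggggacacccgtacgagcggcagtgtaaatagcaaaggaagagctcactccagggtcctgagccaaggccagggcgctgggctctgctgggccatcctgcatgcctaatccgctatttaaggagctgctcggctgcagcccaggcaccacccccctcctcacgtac
Tmprss3: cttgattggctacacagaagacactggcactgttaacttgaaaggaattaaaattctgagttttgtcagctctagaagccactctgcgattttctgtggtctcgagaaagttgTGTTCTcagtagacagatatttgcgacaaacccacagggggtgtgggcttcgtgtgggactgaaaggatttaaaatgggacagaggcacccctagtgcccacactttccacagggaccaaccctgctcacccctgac
Bmp4: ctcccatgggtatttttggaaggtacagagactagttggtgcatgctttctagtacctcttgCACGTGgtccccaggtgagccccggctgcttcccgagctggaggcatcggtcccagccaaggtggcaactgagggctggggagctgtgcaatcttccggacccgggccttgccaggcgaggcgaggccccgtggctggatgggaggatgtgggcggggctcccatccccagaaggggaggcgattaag

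The 5 genes of ion, solute and lipid transport were the furthest below fresh of the 8 role groups, with a median of 25.9%: with dexamethasone they stood at 13.2% to 41.5% of fresh, and all 5 had every dexamethasone array below fresh. That ranking depends on how roles were assigned. The channel genes Cacna1d (54.1%) and Tmem37 (89.0%) and the carrier family member Slc7a14 (119%) were placed with signalling. Car14 encodes a membrane-bound carbonic anhydrase, an enzyme that interconverts carbon dioxide and bicarbonate. Its signals were 2225, 2306 and 2267 in fresh, 79.9, 75.1 and 113 in incubated and 361, 406 and 426 in dexamethasone arrays. It was at least 11.3-fold lower in incubated than in fresh tissue, and with the hormone it stood at 17.6% of fresh. Tmprss3, a membrane serine protease whose loss causes deafness and which can activate the epithelial sodium channel, gave 599, 706 and 685 in fresh, 71.8, 78.0 and 69.1 in incubated and 295, 243 and 288 in dexamethasone arrays. No incubated array reached the floor and all 3 dexamethasone arrays did. Slco1c1, an organic anion carrier for thyroid hormone, stood at 1648, 1628 and 1578 in fresh, 85, 104 and 69.9 in incubated and 216, 232 and 194 in dexamethasone arrays. Its dexamethasone arrays lay around the floor, 1 of them just under it. Apod, the secreted lipid carrier apolipoprotein D, had the highest fresh signal of the 85, 22709.9, 22264 and 22080.2, against 3651, 3353 and 3626 in incubated and 8579.5, 8422 and 8542 in dexamethasone arrays. The change with dexamethasone was 1.26 (log2, SE 0.044) and the level 38.1% of fresh. Abca9, a lipid-linked ABC transporter, gave 1106, 1346 and 1305 in fresh, 192, 148 and 147 in incubated and 308, 316 and 348 in dexamethasone arrays.

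Among 48 listed genes of potassium, chloride, bicarbonate and calcium transport, Car14 was the member of the 85. Of the 36 tested, 29 were lower and 4 higher in culture (limma, adjusted p under 0.05). With dexamethasone 12 were higher and 11 lower, with a median change of 0.05, against -0.03 over all tested genes. The shares called among all tested genes were 40.7% lower and 36.1% higher in culture, and 22.3% higher and 28.7% lower with dexamethasone. Car12, another carbonic anhydrase, went from a mean of 3939 in fresh to 2878 in incubated and 592 in dexamethasone arrays, a change of -2.23 with the hormone (log2, SE 0.081, limma adjusted p = 1.13e-09).

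**Figure D2:**
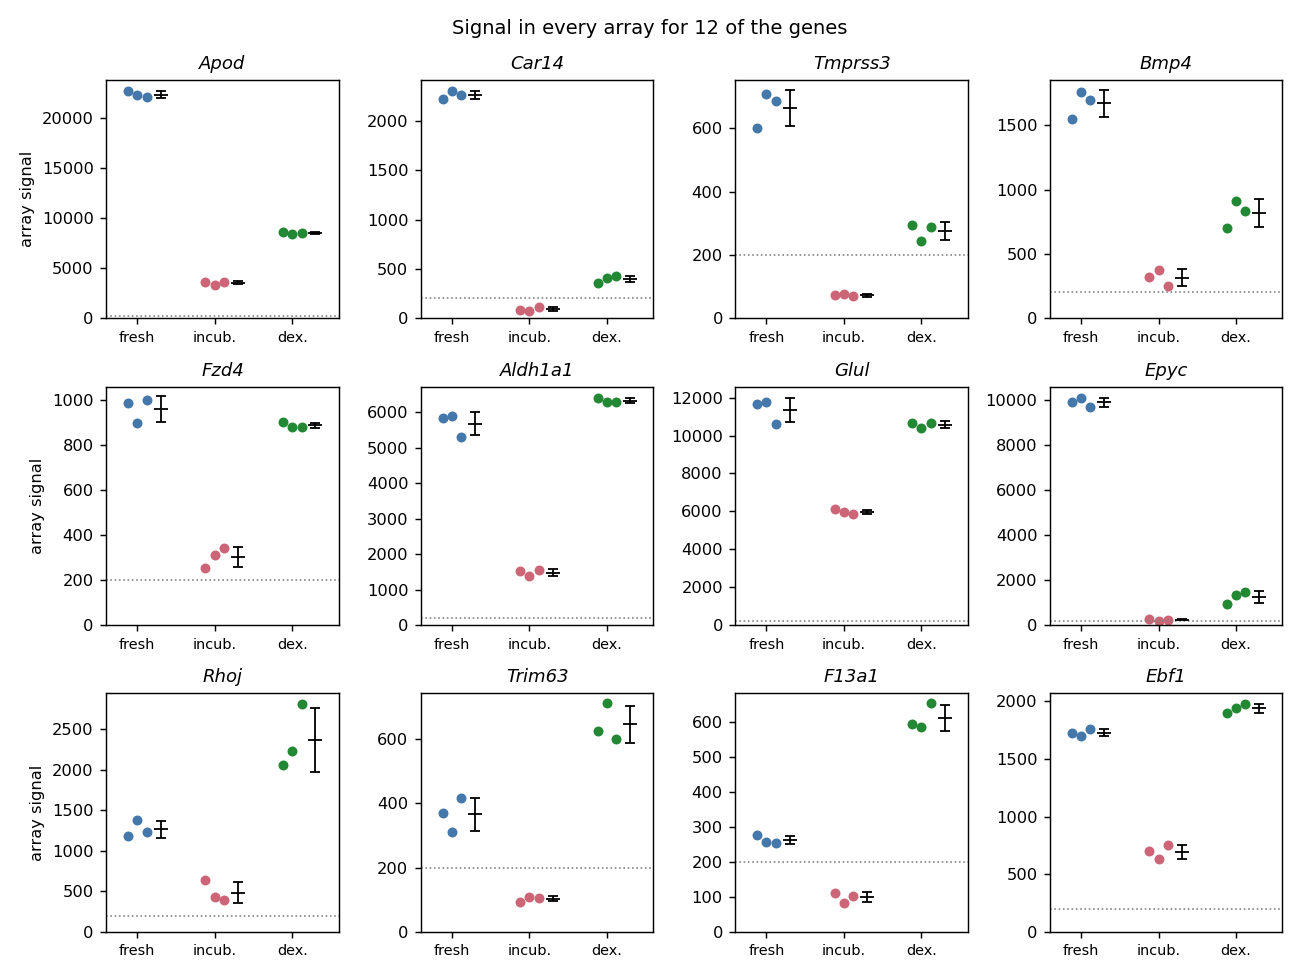
Array signal (y axis, from 0) in fresh, incubated and dexamethasone tissue for 12 genes; points are arrays, black marks the mean ± SD of 3 arrays, and the dotted line is a signal of 200. On the probe sets the rule took, Apod, Car14, Tmprss3 and Epyc stayed far below fresh with dexamethasone. On the same probe sets Fzd4 and Glul came within range of fresh, and Rhoj, Trim63 and F13a1 lay above it.

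All 5 secreted ligands were still below fresh with dexamethasone, on every array. Bmp4 and Bmp6 encode bone morphogenetic proteins, ligands of the TGF-beta family with roles in inner ear patterning. Bmp4 gave 1550.4, 1761 and 1696 in fresh, 322, 376 and 251 in incubated and 700.0, 914 and 831 in dexamethasone arrays. Bmp6 gave 879, 793 and 882 in fresh, 48.5, 62.7 and 63.7 in incubated and 188, 230.0 and 244 in dexamethasone arrays. With dexamethasone Bmp4 stood at 48.8% and Bmp6 at 25.9% of fresh. Bmp6 was under the floor on every incubated array and on dexamethasone array A (188). It was at least 4.26-fold lower in culture. Tac1, the precursor of the neuropeptide substance P, went from 619, 549 and 536 to 45.4, 54.8 and 37.4 in culture and stood at 241, 269.6 and 218 with dexamethasone, at least 2.84-fold lower in culture and 42.8% of fresh with the hormone. Enho, the precursor of the secreted peptide adropin, showed narrow groups at 2543, 2700.1 and 2528 in fresh, 608, 583 and 594 in incubated and 1512, 1572 and 1532 in dexamethasone arrays, with 1.32 (log2, SE 0.053) for the hormone. Pdgfc, a platelet-derived growth factor, varied most between incubated arrays in this group, at 457, 906 and 648, against 1722, 1829.8 and 1766 in fresh and 1247, 1600.3 and 1104 with dexamethasone.

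Genes of the Wnt pathway, in which secreted Wnt ligands act through Frizzled receptors, included a receptor and feedback inhibitors. Fzd4, a Frizzled receptor, gave 986, 894 and 1000.3 in fresh, 255, 309 and 343 in incubated and 901, 879.7 and 878 in dexamethasone arrays. On this probe set, the one the rule took, the dexamethasone arrays overlapped the fresh range, at 92.3% of the fresh mean. Another Fzd4 probe set had a fresh mean of 250 and stayed far below it with the hormone. Its mean was 83.8 without dexamethasone and 107 with it, both under the floor, a change of 0.26 (log2). Nkd1, an intracellular Wnt inhibitor that is itself a Wnt target, stood at 63.0% of fresh with dexamethasone. Its arrays read 328, 380.4 and 383 after culture, 738, 765 and 767 with the hormone and 1188, 1161 and 1254 when fresh. Notum, a secreted enzyme that inactivates Wnt ligands, was near the floor with dexamethasone (200.1 to 217.8) and under it in every incubated array (54.2 to 81.0), against 286.7 to 326.8 in fresh. Among receptors, the fibroblast growth factor receptor Fgfr1 stood at 92.6% and the ephrin receptor Epha4 at 95.9% of fresh, both with overlapping arrays. Other probe sets differed here too. For Fgfr1, another one measured in every group fell from a mean of 384 to 230 in culture. With dexamethasone it stood at 269, a change of 0.20 (log2). Those of Epha4 with fresh means of 373 and 320 passed fresh with dexamethasone, at 453 and 519. The netrin receptor Unc5b had the lowest dexamethasone mean of the 85, 202.4.

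Signalling through calcium and cyclic AMP included several genes known from synapses. Cplx1, complexin 1, a clamp on vesicle fusion at synapses, gave 6037, 6347 and 6462 in fresh, 61.1, 60.1 and 105 in incubated and 301, 173 and 239.7 in dexamethasone arrays. It was at least 31.4-fold lower in culture, and with dexamethasone 2 of 3 arrays passed the floor at a mean of 3.79% of fresh, the lowest of the 85. Of 11 tested neuron markers, 10 were lower in culture, and their summed signal went from 19714 to 21021 in fresh to 803 to 894 in incubated and 592 to 679 in dexamethasone arrays. Among all tested genes 40.7% were lower in culture, and 22.3% were higher and 28.7% lower with dexamethasone. With dexamethasone 1 of the 11 was higher, Nefh, at means of 14.5 and 81.4, both under the floor, and 3 were lower; the part of nerve endings in the Cplx1 result was not tested.

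Cacna1d encodes the pore of an L-type calcium channel found in hair cells and other tissues. It gave 641, 691 and 604 in fresh, 89.0, 84.2 and 99.4 in incubated and 361, 358 and 328 in dexamethasone arrays, and it stood at 54.1% of fresh with the hormone. Adcy1, an adenylyl cyclase stimulated by calcium and calmodulin, gave 1986, 1898 and 1774, 419, 458 and 437 and 825, 948 and 869.7 in the same order, and 0.47 of its fall was absent with dexamethasone. Rgs2, which ends signalling by G proteins and is a known glucocorticoid target, gave 4165, 3273 and 3639 in fresh, 1321, 1609.9 and 1305 in incubated and 2818, 2812 and 2482 in dexamethasone arrays. The 3 probe sets of Rgs2 with fresh signals over 200 all moved in both directions, with dexamethasone changes of 0.93, 1.00 and 0.79 (log2). Gria3, a glutamate receptor subunit, stood at 61.3% of fresh, Rufy3, an adaptor in neuronal transport, at 56.8%, and Cdk5r1, the activator of the kinase Cdk5, at 82.5%. The Rufy3 value is that of the probe set the rule took. Other Rufy3 probe sets with fresh means of 669 and 344 had dexamethasone means of 106 and 43.7, both under the floor. The Rap exchange factor Rapgef5 (77.7%), the calcium channel gamma-like protein Tmem37 (89.0%) and the amino acid carrier family member Slc7a14 (119%) came closer to fresh, and only Slc7a14 of these 3 had arrays that overlapped it.

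Enzymes of amino acid, one-carbon and oxidative metabolism took values from 33.5% to 111% of fresh with dexamethasone. Aldh1a1, which makes retinoic acid from retinal, had a change with dexamethasone of 2.08 (log2, SE 0.058), from 1513, 1369 and 1554 in incubated to 6415, 6282 and 6282, against 5844, 5894 and 5302 in fresh arrays. All 3 dexamethasone arrays were above fresh, by a mean of 0.16 (log2, SE 0.058). Glul, glutamine synthetase, a well-known glucocorticoid-induced enzyme, gave 11685, 11772 and 10617 in fresh, 6103, 5968 and 5860.0 in incubated and 10671, 10387 and 10683 in dexamethasone arrays. Its dexamethasone arrays overlapped the fresh range. Prodh, the first enzyme of proline breakdown, reached 64.9% of fresh, with signals of 1382, 1259 and 1415 in fresh, 358, 285 and 331 in incubated and 875, 858 and 897 in dexamethasone arrays.

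Gnmt and Bhmt2 act on methyl groups, Gnmt by methylating glycine and Bhmt2 by remethylating homocysteine. Gnmt was uneven with dexamethasone, at 1053, 1128 and 1587, against 455, 642 and 593 in incubated and 2229.9, 2419 and 2143 in fresh arrays. Bhmt2 was at 726, 842 and 738 in fresh, 121, 124 and 136 in incubated and 242, 280.3 and 250.5 in dexamethasone arrays, the lowest of these enzymes relative to fresh at 33.5%. Plin4, a coat protein of lipid droplets and known receptor target, gave 360.2, 251 and 344 in fresh, 50.5, 73.4 and 33.7 in incubated and 228, 264 and 195 in dexamethasone arrays, with fresh array B below 1 dexamethasone array. Cdo1, which oxidises cysteine, and Gmps, which makes guanosine monophosphate, were in the fresh range with dexamethasone at 102% and 99.3%. Aox3, an aldehyde oxidase, stood at 82.0%, the methyltransferase-like protein Mettl7a1 at 60.2% and the sulfotransferase Sult5a1 at 55.6% of fresh.

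Gene lists chosen for the tissue and the hormone give the setting of these enzymes. The share of all tested genes called was 40.7% lower and 36.1% higher in culture, and 22.3% higher and 28.7% lower with dexamethasone. Of 25 tested genes of lipid, fuel and amino acid metabolism, 18 were lower and 3 higher in culture, and 12 were higher and 2 lower with dexamethasone (limma, adjusted p under 0.05); Apod, Glul, Plin4 and Prodh were members of the 85. Of 29 tested genes of detoxification and antioxidant defence, 19 were lower and 8 higher in culture, and 17 were higher and 7 lower with dexamethasone, with Aldh1a1 and Aox3 among the 85. When arrays were scaled on hybridization controls, which put the median change of all tested probe sets at -0.46 (log2) with dexamethasone and at 0.28 in culture, against 0.01 and -0.05 as deposited, those dexamethasone counts turned to 7 higher and 14 lower, and 7 higher and 17 lower. Aldh1a2, an isoform from the same family as Aldh1a1, went the other way, from a mean of 1722 in fresh to 3977 in incubated and 1549 in dexamethasone arrays.

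Of 37 tested genes known as receptor targets, 32 were higher and 2 lower with dexamethasone, a median change of 0.67, and 21 were lower and 9 higher in culture. The count with dexamethasone was 17 higher and 10 lower under scaling on hybridization controls. Only Glul, Plin4 and Rgs2 of this list belonged to the 85, and the rule left out others, among them Zbtb16, Klf15 and Sult1a1. Clock genes, several of which are controlled through E-boxes, were lower in culture in 12 of 16 tested and higher in 4; with dexamethasone 8 were higher and 5 lower, and none was among the 85. Of 22 tested genes of sodium transport, 17 were lower and 3 higher in culture, and 9 were higher and 7 lower with dexamethasone, again with none among the 85. Under scaling on hybridization controls the dexamethasone counts were 3 higher and 8 lower for clock genes, 3 and 17 for sodium transport and 5 and 21 for the potassium, chloride, bicarbonate and calcium list. As deposited, limma called 22.3% of all tested genes higher and 28.7% lower with dexamethasone, and 40.7% lower and 36.1% higher in culture. The clock and sodium counts lower with dexamethasone were near that 28.7%.

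**Figure D3:**
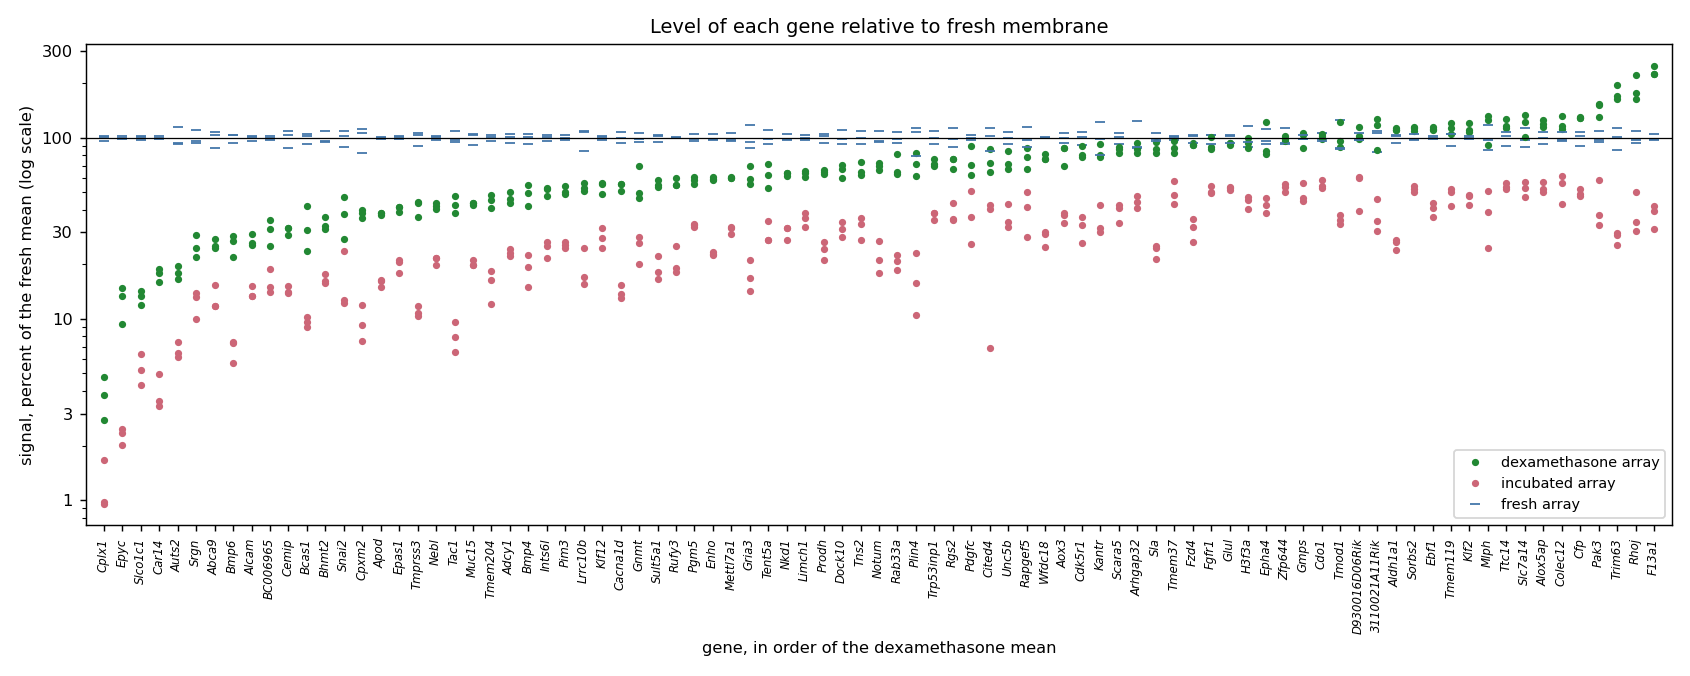
Signal of each of the 85 genes as a percent of its fresh mean (log axis), in order of the dexamethasone mean; green points are dexamethasone arrays, red points incubated arrays and blue dashes fresh arrays. Dexamethasone means ran from 3.79% (Cplx1) to 233% (F13a1) of fresh, and incubated arrays lay below the other arrays of every gene.

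Genes of matrix, secretion and defence ran from 12.6% to 233% of fresh with dexamethasone. Epyc, epiphycan, a small leucine-rich proteoglycan abundant in the cochlea, gave 9916, 10105 and 9709 in fresh, 245, 199.7 and 234 in incubated and 933, 1326 and 1475 in dexamethasone arrays. Its change with dexamethasone was 2.28 (log2, SE 0.13), yet the level was 12.6% of fresh, and incubated array B was just under the floor. Srgn, serglycin, a proteoglycan of secretory granules in blood and other cells, gave 1934, 1979 and 2256 in fresh, 272, 207 and 287 in incubated and 601, 450.1 and 504 in dexamethasone arrays, with 0.33 of its fall absent. Cemip, which takes part in hyaluronan breakdown and is also known in the ear, gave 1580.1, 1969.7 and 1875, 254, 275 and 251 and 572, 526 and 574 in the same order, a share of 0.38. Cpxm2, a carboxypeptidase-like secreted protein, went from 592, 805 and 762 in fresh to 85.5, 66.9 and 54.7 in incubated and 275, 259 and 288 in dexamethasone arrays. Muc15, a membrane mucin, stood at 43.4% and Wfdc18, a small secreted protein with a whey acidic domain, at 78.3% of fresh.

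Genes known from macrophages and other defence cells included 4 with every dexamethasone array above fresh. F13a1, the A subunit of coagulation factor XIII, which macrophages also make, gave 276, 256 and 253 in fresh, 110.4, 82.1 and 103 in incubated and 592, 585 and 652 in dexamethasone arrays. It was at least 3.05-fold higher with dexamethasone than in incubated tissue and 233% of fresh, the highest of the 85. Cfp, properdin, which stabilises the alternative complement convertase, gave 536, 472 and 562 in fresh, 272, 249 and 257 in incubated and 677, 675 and 681 in dexamethasone arrays. The other Cfp probe set was under the floor in every group, with means of 52.4, 45.4 and 6.1 in the same order. Alox5ap, which presents arachidonate to 5-lipoxygenase, gave 384, 449 and 417, 238, 218 and 209 and 499.6, 476 and 523, and Colec12, a scavenger receptor of the collectin family, 886, 806 and 792, 358, 511 and 465 and 928, 1095 and 959.5. Shares were over 1 for the 3 of them that were measured in culture (1.39, 1.30 and 1.29). Scara5, a ferritin receptor, reached 85.8%, and Tmem119, a membrane protein of bone-forming cells and microglia, 113% of fresh.

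Macrophage markers did not move as one. Of 12 tested, 6 were higher and 4 lower in culture, and 6 were higher and 3 lower with dexamethasone (2 and 6 under scaling on hybridization controls). As deposited, 36.1% of all tested genes were higher and 40.7% lower in culture, and 22.3% higher and 28.7% lower with dexamethasone. C1qb rose by 0.93 (log2, SE 0.076, limma adjusted p = 1.02e-06) and Ptprc changed by -0.93 (SE 0.10, limma adjusted p = 1.32e-05) with the hormone. The summed signal of the 14 markers on the array was 9521 to 9961 in fresh, 8934 to 9378 in incubated and 10197 to 10439 in dexamethasone arrays. Its means were 94.9% of fresh in incubated and 106% in dexamethasone arrays. Cd163 (means of 73.9, 21.7 and 101) was under the floor in every group, as Mrc1 was in incubated (23.4) and dexamethasone (52.5) arrays. Whether these cells contribute to the result was not tested.

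Cytoskeletal and adhesion genes held another 4 of the 12 genes above fresh. Trim63, a ubiquitin ligase known from glucocorticoid-driven muscle wasting, was under the floor in every incubated array. Its signals were 369.6, 312 and 417 in fresh, 93.4, 109 and 106 in incubated and 626, 712 and 602 in dexamethasone arrays, at least 3.23-fold higher with the hormone than without. Rhoj, a small GTPase known from endothelial cells, gave 1180.3, 1376 and 1234 in fresh, 638, 431 and 387 in incubated and 2065, 2231 and 2814 in dexamethasone arrays. Its share, 1.65, was the highest measured. Pak3, a kinase activated by Rac and Cdc42, gave 447, 459.6 and 513, 275, 178 and 155 and 615, 726 and 721 in the same order, and Sorbs2, an adaptor at stress fibres, 2209, 2256 and 2392, 1243, 1191 and 1154 and 2580.5, 2612 and 2493. The dexamethasone arrays of all 4 lay above fresh.

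The other members of this group were closer to fresh or below it. Alcam, an immunoglobulin-family adhesion molecule, had the lowest share, 0.32, with 1780.1, 1874 and 1891 in fresh, 247, 246 and 282 in incubated and 546, 471 and 484 in dexamethasone arrays. Nebl, nebulette, an actin-binding protein, followed with 2178, 2118 and 2214, 468, 472 and 431 and 877, 944 and 917. Tmod1, which caps the pointed end of actin filaments, was in the fresh range at 3756, 4033 and 5131 with dexamethasone against 5306, 3647 and 3678 in fresh and 1574, 1479 and 1404 in incubated arrays. The actin and adhesion proteins Pgm5, Tns2 and Limch1 stood at 58.5%, 66.7% and 63.4% of fresh, the GTPase regulators Dock10 and Arhgap32 at 65.9% and 87.1%, and the vesicle transport proteins Rab33a and Mlph at 69.8% and 116%.

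Transcription factors and chromatin proteins spread from 18.1% to 113% of fresh. Auts2, a nuclear protein tied to neural development, gave 1049, 1307 and 1067 in fresh, 70.2, 74.4 and 84.6 in incubated and 206, 189 and 223 in dexamethasone arrays. Snai2, a repressor of epithelial genes, gave 943, 893 and 773, 107, 111 and 205 and 331, 239 and 411, with incubated array C above its partners. The other Snai2 probe set was under the floor in every group, with means of 113, 33.8 and 52.1. Epas1, the hypoxia-inducible factor 2 alpha, gave 2364, 2429 and 2457, 498, 512 and 433 and 942, 998 and 1001, and it stood at 40.6% of fresh. Ebf1, a factor of early B cells that is also found in connective tissue, passed fresh on all 3 arrays, at 1898, 1942 and 1979 against 1727, 1699 and 1758 in fresh and 704, 628 and 749 in incubated tissue. Klf2, a factor of endothelium and lymphocytes, did so too at a low level, 287, 320.2 and 294 against 262, 270.0 and 264 in fresh and 112, 126 and 127 in incubated arrays. The Ebf1 result held only for the probe set the rule took. Its 3 other probe sets measured in every group stayed below fresh. Their dexamethasone means were 483, 339 and 232, against fresh means of 593, 555 and 495.

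Klf12 reached 53.6% of fresh, but its other probe set measured in every group had a fresh mean of 985 and means of 380.2 without and 377 with dexamethasone, a change of -0.005 (log2). Cited4, a coactivator that binds CBP, rested on a low incubated array B, at 158, 25.6 and 149.9, and its SE of 0.35 for each change was the largest of the 85. Trp53inp1, a p53-induced protein, stood at 73.0%, the Integrator-related protein Ints6l at 50.9%, the zinc finger protein Zfp644 at 98.6% and the histone gene H3f3a at 93.7% of fresh. H3f3a has near-identical copies elsewhere in the genome, so its signal may include theirs.

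The last group joins kinases, adaptors and genes of unassigned role. Pim3, a serine/threonine kinase, was among the strongest signals, 10568, 10931 and 11237 in fresh, 2915, 2684 and 2796 in incubated and 5928, 5371 and 5466 in dexamethasone arrays. Bcas1, a protein of myelinating cells, fell from 851, 881 and 772 to 75.3, 85.5 and 80.7 and stood at 350.2, 259 and 199 with dexamethasone, with every incubated array under the floor and 1 dexamethasone array just under it. BC006965 gave 2109, 2062 and 2177, 318, 399.7 and 298 and 743, 666 and 535, a share of 0.34. Tmem204 stood at 44.9%, Lrrc10b at 53.4%, Tent5a, a poly(A) polymerase, at 62.4%, Kantr, a noncoding RNA, at 83.7% and Sla, an adaptor of T and B cell receptors, at 87.6% of fresh. D930016D06Rik (105%), 3110021A11Rik (110%) and Ttc14 (119%) were at or above fresh in the mean, with all arrays above in Ttc14 alone.

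Other probe sets of the same genes, which the rule did not take, read the same RNA. There were 115 for 53 of the 85 genes, of which 72 had a fresh mean under 200. Of the 43 others, on 29 genes, 38 were lower in incubated arrays, 37 were higher with dexamethasone and 34 did both, 11 of them past 0.8 both times. Some of these directions lie between values under the floor. Keeping probe sets by their fresh mean favours a fall in culture. No share over the other probe sets of all genes stands beside these counts, so they are a description and carry no support. Among the 25 probe sets, on 17 genes, with all 3 group means at 200 or more, 17 moved in both directions and 4 passed 0.8 both times. That of Glul changed by -1.31 and 0.84 (log2), that of Enho by -1.75 and 1.18 and that of Sorbs2 by -0.99 and 1.28. The 3 others of Ebf1 were lower in culture by -0.96 to -1.14 but had dexamethasone changes of 0.10 to 0.68, below the 1.45 of the probe set the rule took. The 1 such probe set of Alcam changed by -2.15 and 0.52. The 9 that did not move in both directions belonged to BC006965, D930016D06Rik, Gmps, Klf12, Ttc14 and Zfp644. Those of D930016D06Rik, Gmps and Zfp644 and 1 of Ttc14 were higher in incubated than in fresh arrays, and the rest were lower. For Zfp644 the means were 718, 926 and 947, and 323, 368 and 269, in fresh, incubated and dexamethasone arrays.

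**Figure D4:**
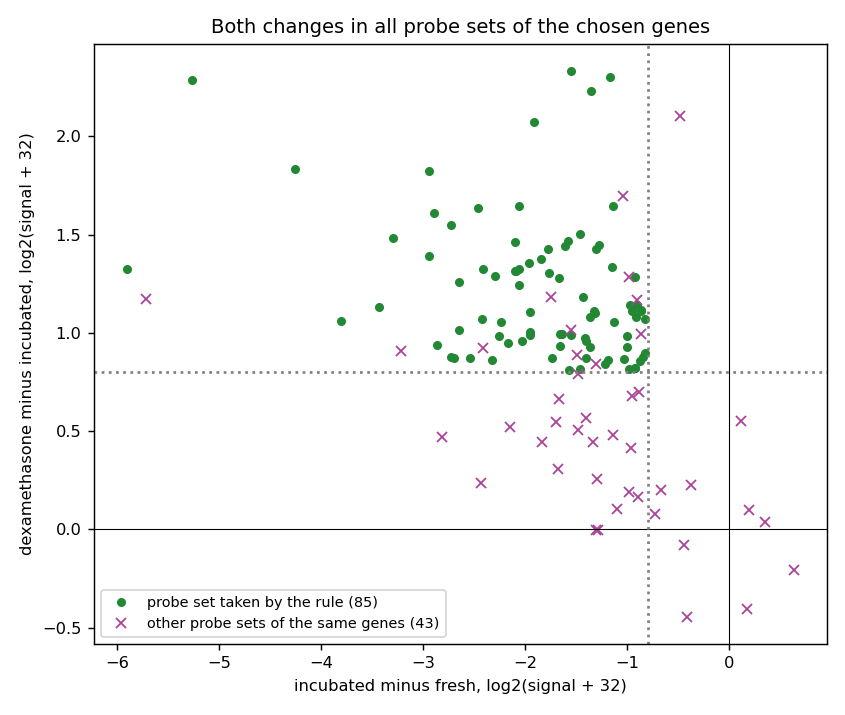
Change in culture (x axis) against change with dexamethasone (y axis), both in log2(signal + 32); green points are the 85 probe sets taken by the rule, which fill the corner the dotted limits of 0.8 define, and crosses are 43 other probe sets of the same genes with a fresh mean of 200 or more. Of the crosses, 34 lie in the same quadrant and 11 past both limits.

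The fresh tissue carried markers of cells beside the membrane, and their summed signals were lower in culture. For comparison, 40.7% of all tested genes were lower and 36.1% higher in culture, and 22.3% higher and 28.7% lower with dexamethasone. The summed signal of 13 spiral ligament and limbus fibrocyte markers was 96583 to 99884 in fresh, 16784 to 17234 in incubated and 13726 to 14373 in dexamethasone arrays; 12 of 13 were lower in culture, and 6 were higher and 5 lower with dexamethasone. For organ of Corti supporting cells the sum of 11 markers was 10668 to 10961, 1471 to 1564 and 1962 to 2026, with all 7 tested lower in culture and 6 higher with dexamethasone (3 higher and 3 lower under scaling on hybridization controls). Blood cell markers, 8 on the array, summed to 22748 to 23406, 3848 to 3980 and 141 to 279, with all 7 tested lower in both comparisons. Schwann cell and myelin markers summed to 47293 to 47592, 25393 to 27326 and 30409 to 32317. Of 8 tested Schwann cell markers, 6 were lower and 2 higher in culture (1 lower and 5 higher under median centring), and 4 were higher and 1 lower with dexamethasone (0 higher and 4 lower under scaling on hybridization controls). As deposited, the supporting cell and Schwann cell sums were lowest in incubated tissue. The part of these cells in the result was not tested. Gjb6, Otog, Coch, Otos and Pou3f4 of the fibrocyte and supporting cell lists are among the genes the rule leaves out.

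Epithelial markers were measured in every group. The shares of all tested genes were 36.1% higher and 40.7% lower in culture, and 22.3% higher and 28.7% lower with dexamethasone. All 15 epithelial markers were tested; 12 were higher and 2 lower in culture and 9 higher and 2 lower with dexamethasone, though 0 were higher and 12 lower under scaling on hybridization controls. Their summed signal was 42573 to 44216 in fresh, 93196 to 97527 in incubated and 106651 to 112220 in dexamethasone arrays. Whether the number of epithelial cells changed was not tested. Of 11 tested mesothelial and fibroblast markers, 7 were lower and 3 higher in culture and 6 lower and 2 higher with dexamethasone, and the summed signal of all 15 was 47802 to 49194 in fresh, 28061 to 28835 in incubated and 25600 to 26194 in dexamethasone arrays. Of the mesothelial markers, Msln had a mean of 45.1 in fresh tissue, under the floor, and 1203 in incubated tissue, while Upk3b, Wt1 and Lrrn4 were under 200 in all groups.

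**Figure D5:**
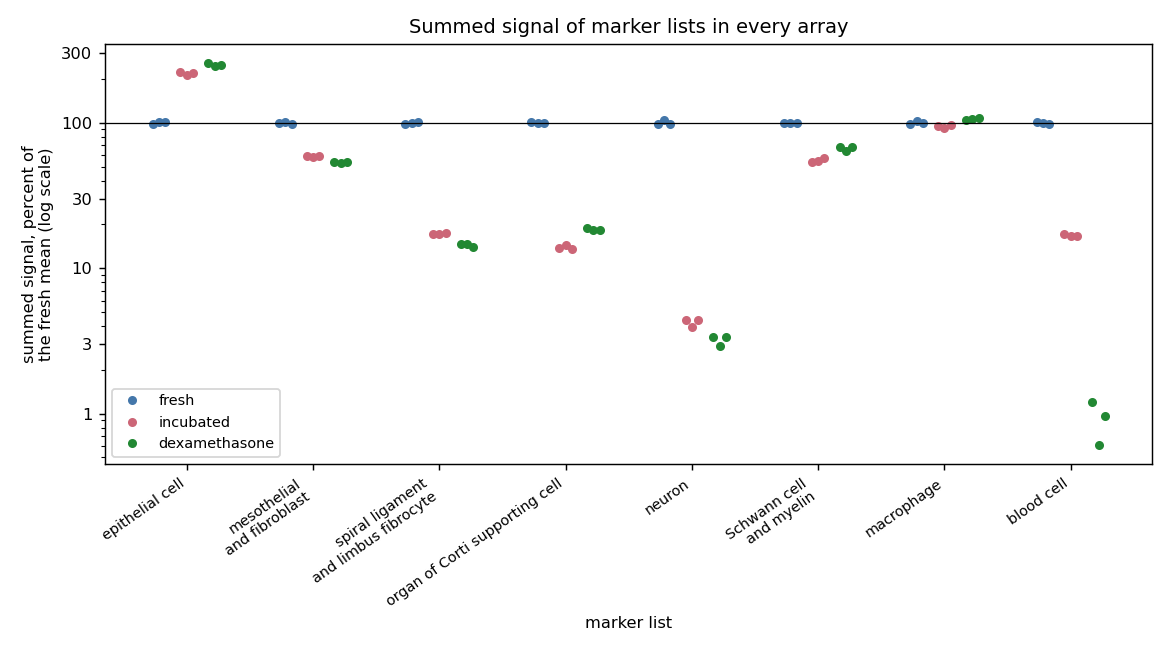
Summed signal of 8 marker lists on each array as a percent of the fresh mean (log axis); points are arrays, coloured by group. Epithelial markers stood at 219% of fresh in incubated and 250% in dexamethasone arrays (means of 3), fibrocyte markers at 17.3% and 14.4%, supporting cell markers at 14% and 18.4%, and blood cell markers at 16.9% and 0.926%. The fibrocyte and supporting cell lists share Gjb6, which makes up the larger part of the fresh supporting cell sum.

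Under quantile normalization, median centring and scaling on hybridization controls, all 85 were lower in culture and higher with dexamethasone in the mean, and the median dexamethasone change was 1.04, 0.96 and 0.65 (log2). Genes chosen for changes of at least 0.8 could hardly change sign under shifts of that size, so their common direction carries no support. The 3 incubated arrays stayed below all others for all 85 under the first 2 and for 83 under the last, the exceptions being Pdgfc and Snai2. The scaling moved the count of genes above fresh: the 12 kept a mean above fresh under each scaling, but the number with all 3 arrays above was 21 under median centring and 5 under scaling on hybridization controls.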

How the data were processed

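RNA from fresh, incubated and dexamethasone-treated Reissner's membrane was amplified by 2 rounds of in vitro transcription and hybridized to 9 expression arrays, 3 per group, per the labels. The authors deposited a linear intensity for each probe set, brought by them to a common target signal (500) over all probe sets, with normalization left at 1, per the labels. The probe summary software is not stated in the labels, and detection calls were not used; 200 was therefore the working floor. The number of arrays limits the precision. A mean over all probe sets with 2% trimmed from both tails came to 500 for each array, and no 2 arrays held the same values.

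Of 45101 probe sets, 64 were controls, 34945 had 1 gene symbol, 932 several and 9160 none in the platform annotation used, and the single-symbol probe sets covered 18193 genes. For 10 members the rule took a probe set ending _s_at or _x_at, whose probes may match other transcripts. They were Car14, Cacna1d, Snai2, Tmem204, Bhmt2, Pim3, Wfdc18, 3110021A11Rik, Fgfr1 and Ttc14. The selection rule was applied to means of log2(signal + 32); such changes understate those of dim genes. For the background and the gene lists, limma (3.58.1, R 4.3.3) fitted 1 mean per group over all 9 arrays with eBayes and an intensity trend, on 18913 probe sets that reached 200 on at least 3 arrays, with Benjamini-Hochberg adjustment over them; the script was tested on simulated data. Genes in lists were represented by their brightest probe set, and 351 of 379 entries in 19 lists were on the array. Every member is named by role, with array values for those largest or smallest in each measure, in a gene list or with a textbook role; in a list, other genes were named only among its 3 smallest adjusted p. The members, lists and roles were chosen with earlier results of these data known. Alternatives covered scaling, pseudocount, floor, rule size, choice of probe set, replicate block and leaving out each array. The R package data.table (version 1.17.8) and Python 3.11.15, pandas 2.3.3, NumPy 2.4.6 and matplotlib 3.10.9 made the files and figures.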

Additional observations from a re-analysis of the deposited data

How the results depend on the processing

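The number of genes that met the rule, 85, was 52 under median centring, 28 under scaling on hybridization controls, 131 and 51 with floors of 100 and 400, and 181 and 46 with limits of 0.6 and 1; it stayed within 85 to 93 when 1 array was left out. The median difference of the members from fresh with dexamethasone, -0.47 (log2), was -0.50 under quantile normalization, -0.22 under median centring, -0.60 under hybridization-control scaling, -0.52 and -0.43 with pseudocounts of 1 and 100, -0.57 with the mean of all probe sets, and -0.54 to -0.47 with 1 array left out. Members with all dexamethasone arrays above fresh numbered 21 under median centring and 5 under hybridization-control scaling. The median share, 0.69, was 0.83, 0.49 and 0.64 under median centring, hybridization-control scaling and the mean of probe sets, and 0.66 to 0.72 with 1 array left out. The relaxed promoter repeat, added after the data were seen, raised its count from 0 to 2. The cause of these shifts was not tested.

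Median centring put the median change of all tested probe sets at 0.39 in culture and at -0.15 (log2) with dexamethasone. Of probe sets called in culture, 6620 were higher and 7593 lower (11235 and 3612 under median centring, 9942 and 4274 under hybridization-control scaling); with dexamethasone, 5116 were higher and 4820 lower (3130 and 7694, and 1260 and 13572). A replicate block on the array letters gave 14130 called probe sets in culture and 9811 with dexamethasone, against 14213 and 9936. Deviations of same-lettered arrays correlated by -0.06 to 0.16. Between arrays of different letters and groups the correlations ran from -0.16 to 0.15. Such values cannot tell whether arrays of the same letter share a pool or a day.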

Other observations

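The rule took single-gene probe sets only. Another 72 probe sets with no gene symbol in the annotation used, and 3 that carry several symbols, had the same values: a mean signal of 200 or more in fresh and dexamethasone arrays and both changes past 0.8 (log2).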
